A study of Mus musculus with 9 samples.

Results

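The late part of the control time course was examined in 3 of the 9 NOMe-seq libraries of the series, those of differentiating female mouse embryonic stem cells (mESCs) with a non-silencing hairpin (Nons) at days 5, 6 and 7. The 3 libraries were chosen by their titles, and 831926 of the 833294 deposited windows had a value in all of them and lay on the autosomes or the X. The cells were F1 mESC lines from FVB/NJ dams and CAST/EiJ sires, expanded in 2i medium, weaned into serum medium to differentiate, transduced with the hairpin on day 2 and selected with puromycin from day 3. Each day is 1 library from fixed cells, with the reads of both parental alleles merged. The Smarcc1 knockdown libraries at days 5, 6 and 7 shared the cross, the sex, the protocol and the days but carried a hairpin against Smarcc1, which encodes a BAF complex scaffold subunit needed for nucleosome remodelling, and they are set beside the control as separate libraries. No RNA was measured in these libraries, so the knockdown itself was not checked here. With 1 library per condition and day there was no replicate check and no p-value, and each difference describes these libraries only. The question followed here is which promoters, gene classes and regions kept their place relative to the library while its level fell.

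In NOMe-seq a methyltransferase is added to nuclei and methylates GpC sites where no nucleosome blocks it, and bisulfite sequencing reads the marks, so a higher percent GpC methylation stands for lower nucleosome occupancy. Promoters with many CpG dinucleotides, which include most housekeeping promoters, typically hold a nucleosome-depleted stretch at the start site, whereas the CpG-poor promoters of tissue-restricted genes such as odorant receptors mostly do not in cells that do not express them. Over these days differentiating female mESCs establish silencing of 1 X chromosome, which is driven by the RNA of Xist. In a cell population a change in the share of a cell type and a change of accessibility within each cell cannot be told apart.

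GpC methylation fell across the whole genome of the Nons control from day 5 to day 7. For 788809 autosomal windows the library median went from 21.2% on day 5 to 10.3% on day 6 and 6.41% on day 7. The medians of the 19 single autosomes had a standard deviation (SD over autosomes) of 0.159, 0.126 and 0.0947 points. Day 6 therefore held 48.8% ± 0.453 (SD over autosomes) of the day 5 level, and day 7 held 30.2% ± 0.298 of it. Day 7 held 62.0% ± 0.498 of the day 6 level. Every autosome fell alike, with day 7 at 29.6% to 30.7% of day 5. Of single windows, 86.6% were lower at day 6 than at day 5 and 95.5% were lower at day 7. The knockdown libraries fell over the same days from 20.2% to 11.9% and 7.14%, which left 58.9% and 35.4% of their day 5 level. The 4 windows of the mitochondrial genome, which has no nucleosomes, held 81.7%, 79.1% and 74.3% in Nons at days 5, 6 and 7.

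**Figure D1:**
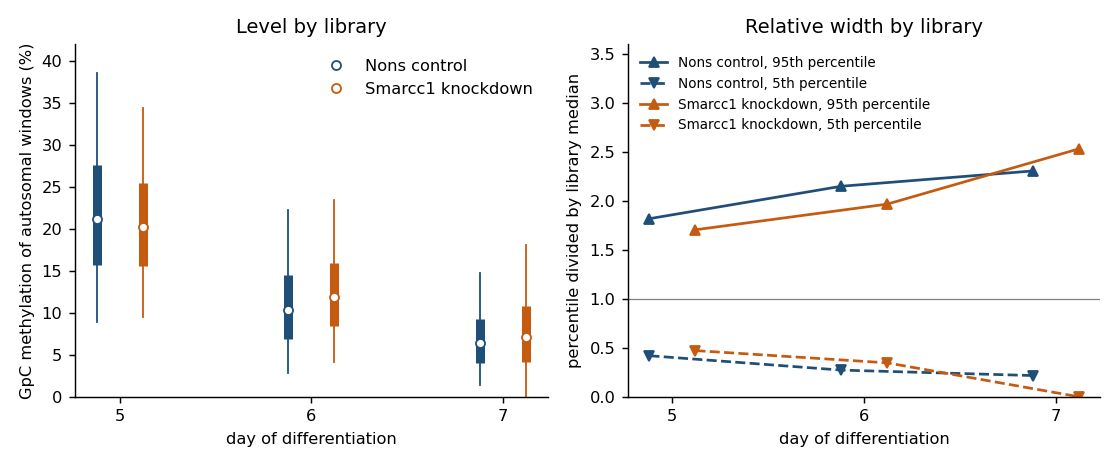
Left, percent GpC methylation of autosomal windows in each library at days 5, 6 and 7, with the median (open circle), the 25th to 75th percentiles (thick bar) and the 5th to 95th percentiles (thin line); right, the 5th and 95th percentiles divided by the library median. The Nons median falls from 21.2% to 6.41% while the 95th percentile moves from 1.82 to 2.30 times the median. In the knockdown the median also falls and the 95th percentile moves from 1.70 to 2.53 times it. The 5th percentile at day 7 is 0 in the knockdown and 0.217 of the median in Nons.

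As the level fell, the windows spread further apart in relative terms. The 95th percentile of autosomal windows was 1.82 times the median at day 5, 2.15 times at day 6 and 2.30 times at day 7, and the 5th percentile dropped from 0.419 to 0.272 and 0.217 of the median. Windows at 0% made up 0.158%, 1.46% and 2.39% of autosomal windows in Nons, and 0.0559%, 0.575% and 5.35% in the knockdown. The values do not show the read depth behind a window, and how far fewer calls or a lower level set this widening was not tested. Single windows carried little that was shared between days, with a Pearson correlation across autosomal windows of 0.133 between days 5 and 6 and 0.114 between days 5 and 7. Promoter windows correlated at 0.356 and 0.355, and the means of 2404 autosomal bins of 1 Mb at 0.717 and 0.672. These correlations are across positions of the same libraries and carry no p-value. To compare days at different levels, each value was divided by the autosomal median of its library, and changes are given as log2 ratios of these relative levels, so that 0 means falling exactly with the library.

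CpG-rich promoters fell slightly less than the library, and CpG-poor promoters fell with it. A promoter window held at least 1 start site of a gene coding for protein or long non-coding RNA, which gave 29996 autosomal and 1043 X windows. The 9037 autosomal CpG-rich windows had medians of 37.0%, 18.9% and 11.96% at days 5, 6 and 7. Relative to the library they changed by 0.06 at day 6 and by 0.10 ± 0.073 (SD over autosomes, log2) at day 7, higher on 18 of 19 autosomes. The 16967 CpG-poor windows had medians of 22.2%, 10.7% and 6.67%, with changes of -0.02 and -0.01, which are smaller than their SD over autosomes of 0.066 at day 7. In the knockdown libraries the CpG-rich windows changed by 0.21 and the CpG-poor windows by -0.0046 at day 7, and the CpG-rich windows were higher on 19 of 19 autosomes. In Nons the windows in the top decile of GC content that were not promoters changed by -0.01 while CpG-rich promoters in the same GC range changed by 0.13. In the knockdown both rose, by 0.12 and 0.28. The gain is one of ratio to the library median and turned on the other scales. Measured as a difference from the library median, CpG-rich promoters lost 10.2 points from day 5 to day 7. Their median rank among autosomal windows went from the 93.6 percentile at day 5 to 89.9 and 88.3 on the next days. Of these windows 94.0%, 81.9% and 79.8% lay above the library median.

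**Figure D2:**
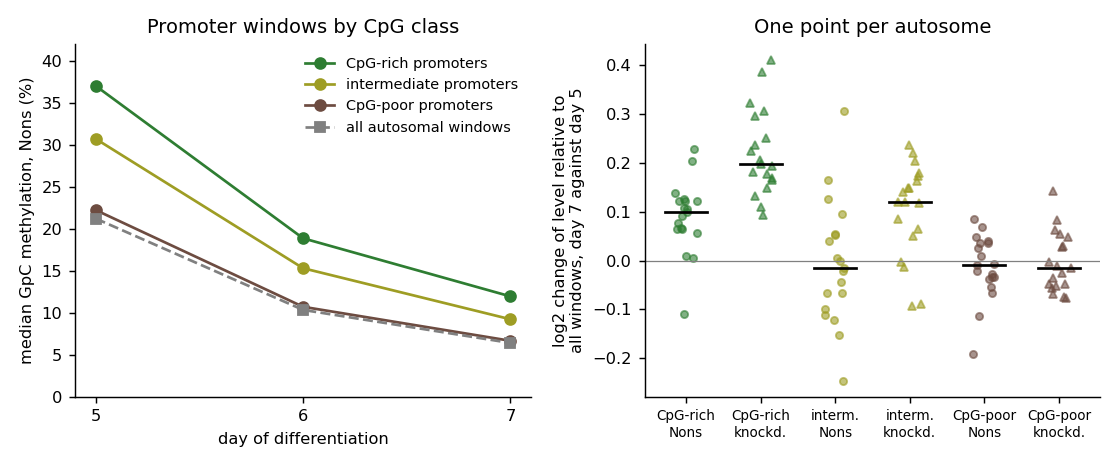
Left, median percent GpC methylation of autosomal promoter windows by CpG class and of all autosomal windows in Nons at days 5, 6 and 7; right, the log2 change of each class relative to all windows from day 5 to day 7, with 1 point per autosome and a bar at the median, for Nons (circles) and the Smarcc1 knockdown (triangles). CpG-rich promoters lie above 0 on 18 of 19 autosomes in Nons, CpG-poor promoters lie around 0, and the points carry no replicate error.

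All promoters as 1 group stood at 1.30 times the median of other autosomal windows at day 5, 1.26 times at day 6 and 1.27 times at day 7. The change was -0.04 ± 0.038 (SD over autosomes, log2) at day 6 and -0.04 ± 0.039 at day 7, and computed from means in place of medians it turned to 0.07 and 0.08. Exon and intron windows kept slightly more than the library at day 7, by 0.02 and 0.03, and intergenic windows slightly less, by -0.02. The intron value was positive on 19 of 19 autosomes and the intergenic value on 0 of 19, although both are small. Windows were also sorted by their level in the earlier libraries, at day 0 and Nons day 4. At day 7 the most open decile changed by -0.04 ± 0.021 (SD over autosomes), above 0 on 1 of 19 autosomes. The other deciles changed by -0.01 to 0.01.

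The 250 bases upstream of 4 start sites are shown so that a CpG-rich and a CpG-poor promoter can be seen beside their values. They were picked for large changes, well beyond those of their classes. Rcor1, which encodes a corepressor of the REST complex, and Fgf5, a marker of the primed epiblast, are CpG-rich and gained relative level. Syt1, which encodes a calcium sensor of synaptic vesicles, lost it. Vmn2r107, which encodes a pheromone receptor, has a CpG-poor promoter in a region that lost relative level. Sequences are RefSeq, GRCm38.p6, written 5′ to 3′ on the strand of the gene, with CpG dinucleotides in capitals.
Rcor1 (chr12:111039117-111039366, plus strand): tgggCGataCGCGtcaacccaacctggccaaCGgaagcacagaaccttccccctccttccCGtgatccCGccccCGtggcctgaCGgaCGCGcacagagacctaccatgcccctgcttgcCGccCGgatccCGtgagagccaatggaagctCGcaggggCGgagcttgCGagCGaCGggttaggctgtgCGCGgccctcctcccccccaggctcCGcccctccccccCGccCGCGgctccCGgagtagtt
Fgf5 (chr5:98253934-98254183, plus strand): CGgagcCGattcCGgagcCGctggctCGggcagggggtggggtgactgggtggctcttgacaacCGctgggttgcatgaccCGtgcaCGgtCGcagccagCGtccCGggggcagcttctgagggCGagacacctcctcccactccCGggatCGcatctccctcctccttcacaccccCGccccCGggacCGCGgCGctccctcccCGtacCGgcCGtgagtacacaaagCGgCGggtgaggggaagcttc
Syt1 (chr10:109010976-109011225, minus strand): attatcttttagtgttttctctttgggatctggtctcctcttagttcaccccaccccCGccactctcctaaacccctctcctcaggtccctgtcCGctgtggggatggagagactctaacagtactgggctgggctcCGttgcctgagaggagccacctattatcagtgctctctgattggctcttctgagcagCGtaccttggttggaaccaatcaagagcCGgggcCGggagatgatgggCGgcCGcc
Vmn2r107 (chr17:20345175-20345424, plus strand): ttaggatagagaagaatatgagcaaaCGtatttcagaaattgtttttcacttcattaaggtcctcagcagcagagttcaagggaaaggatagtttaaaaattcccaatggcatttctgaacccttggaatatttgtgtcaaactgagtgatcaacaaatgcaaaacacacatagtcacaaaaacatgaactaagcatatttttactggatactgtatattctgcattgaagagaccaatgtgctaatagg
Rcor1 holds 25 CpG and 28 GpC dinucleotides in this stretch, Fgf5 24 and 24, Syt1 8 and 15, and Vmn2r107 1 and 8, and only the GpC sites could be marked by the enzyme. These counts take every GpC, whereas the study kept only informative GpC positions. The windows that hold these start sites measured 10.5%, 35.0% and 23.4% for Rcor1, 37.6%, 23.3% and 40% for Fgf5, 58.9%, 5.88% and 3.03% for Syt1, and 33.3%, 8.86% and 0% for Vmn2r107, at days 5, 6 and 7. In the knockdown libraries the day 7 change had the other sign for Rcor1, at -0.88, for Fgf5, at -0.26, and for Vmn2r107, at 0.89.

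Promoter motifs divided the CpG-rich class little, apart from the rarest of those searched. RefSeq promoters from 250 bases before to 50 bases after a start were matched to 16662 of the 34109 genes with a promoter window, where the RefSeq start lay in that window. Over the 6296 CpG-rich windows matched in this way, the change relative to all promoters at day 7 was 0.18. The letters GGGCGG of the GC box, on either strand, were in 74.7% of these promoters and in 35.7% of all RefSeq promoters of the same length, and windows with them changed by 0.16. Those with CCAAT, in 38.1% of the class and 37.4% of all promoters, changed by 0.19. Those with TATAAA changed by 0.11 and those with CCGGAAG, the core of ETS factor sites, by 0.18, which were in 5.54% and 20.1% of the class and in 13.6% and 8.86% of all promoters. The lowest change, 0.03, was that of the 295 windows with GCGCATGCG, a site of the factor NRF1, which changed by 0.17 in the knockdown. A promoter can hold several of these motifs, and a match is not a site of binding.

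Single promoter windows moved in both directions, with little relation to the knockdown libraries. A window was called raised where its relative level, with 0.25 of the library median added, at least doubled on the log2 scale (1 or more), and lost at -1 or less. Of 31039 promoter windows, 9.06% were raised and 10.9% lost at day 6 against day 5. At day 7 against day 5, 10.7% were raised and 13.5% lost, and at day 7 against day 6 15.1% and 16% did so. Counted as a difference of 10 points from the library median, the split was 2950 raised and 8914 lost at day 7 against day 5, in place of 3312 and 4185. It was 4368 and 8007 at day 6 against day 5, in place of 2812 and 3383, and 2863 and 5119 at day 7 against day 6, in place of 4682 and 4964. At both days against day 5, 2.5% were raised and 2.43% lost, and these comparisons share the day 5 library. CpG-rich windows were raised in 12.4% and lost in 12.6%, and CpG-poor windows in 9.97% and 13.9%. Of the promoter windows raised in Nons at day 7, 16.5% were also raised in the knockdown, against 14.1% of all promoter windows, where 15.2% were lost. The Spearman correlation of the change between the arms was 0.03 over 30725 windows. The named genes that follow are read against this background.

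Promoters of pluripotency factors moved in different directions. The window of Pou5f1, which encodes the factor OCT4, measured 46.1%, 20.3% and 11.5% at days 5, 6 and 7, a relative change of -0.13 at day 6 and -0.25 at day 7. It fell close to the pace of the library. Nanog, its partner in the core network, measured 33.3%, 3.23% and 8.33%, and the day 6 value lay lowest relative to its library. Sox2, which pairs with OCT4 on DNA, measured 47.6%, 4.55% and 42.4%, so it was lost at day 6 and raised at day 7 against day 5. Esrrb, a nuclear receptor of the naive state, measured 11.1%, 24.5% and 14.7% and was raised on both days, at 1.76 and 1.72. Klf4 measured 62.1%, 24.4% and 19.4%, and Zfp42, a marker of naive cells, 52.9%, 15.2% and 11.9%. Both stayed within 0.7 of the library at both days. Over the whole network of 25 genes, medians were 35.5%, 18.5% and 13.3%, 2 windows were raised and 5 lost at day 6, and 5 were raised and 1 was lost at day 7. The median window change was -0.03 at day 6 and 0.15 at day 7, against 0.03 and 0.04 over all promoter windows. Fgf4, a ligand made by naive cells, was highest at 21.4%, 10.2% and 26.9%, and Klf2, a naive factor, lowest at 46.2%, 0% and 5.71%. At day 7 the class median changed by 0.35 relative to all promoters in Nons and by 0.46 in the knockdown.

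Among genes of the primed epiblast, the promoter of Otx2, a homeobox factor, followed the library at 26.2%, 11.1% and 7.04%. Dnmt3b, a de novo DNA methyltransferase, measured 36.4%, 0% and 26.9%, and was lost at day 6 and raised at day 7. Of germ layer factors, the mesoderm gene T measured 38.1%, 16.7% and 25.5% and was raised at day 7, at 1.048. Mixl1 measured 19.4%, 5.17% and 2.30%, with a change of -0.94. The endoderm factors Gata4 and Foxa2 measured 27.8%, 7.69% and 4.35%, and 34.1%, 24.3% and 3.23%, and Foxa2 was lost at day 7, at -1.30. Gata6 and Sox17 stayed nearer the library at day 7, with changes of 0.20 and 0.45. In the neural group, Nes, an intermediate filament of progenitors, held 41.4%, 32% and 29.2% and was raised at day 7, at 1.12. Pax6 measured 26.5%, 21.9% and 15.8%, a change of 0.85, and Sox1 45.7%, 8.33% and 10.4%, a change of -0.36.

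The X inactivation genes showed a low day 6 value for Xist and Tsix. Xist, the RNA that coats the inactive X, measured 37.7%, 6.96% and 15.3% at days 5, 6 and 7, which was lost at day 6 at -1.14 and 0.38 at day 7. Tsix, its antisense transcript, measured 37.2%, 3.92% and 10.8%, with changes of -1.67 and -0.05. Rlim, which encodes an activator of Xist, measured 48.8%, 59.5% and 8.05%, and was raised at day 6 at 1.23 and at -0.76 at day 7. In the knockdown libraries Xist and Tsix were also lost at day 6, at -1.20 and -1.70, and stood at -1.83 and -0.77 at day 7. Of the remaining listed genes, Smarcc1 measured 39.2%, 18.6% and 7.45% and Smarca4, the ATPase of the BAF complex, 49.4%, 14.0% and 16%. The reference genes Actb and Gapdh measured 31.3%, 25.8% and 8.33%, and 47.1%, 36.0% and 15.9%. Hprt, on the X, measured 41.5%, 4.08% and 12.2%. Of all 26 listed genes, 2 were raised and 7 lost at day 6, 6 were raised and 1 lost at day 7, and 13 stood above 0 at day 7, beside 9.06% and 10.9% of all promoter windows at day 6 and 10.7% and 13.5% at day 7. Most genes fell close to the pace of the library or moved on 1 day only.

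**Figure D3:**
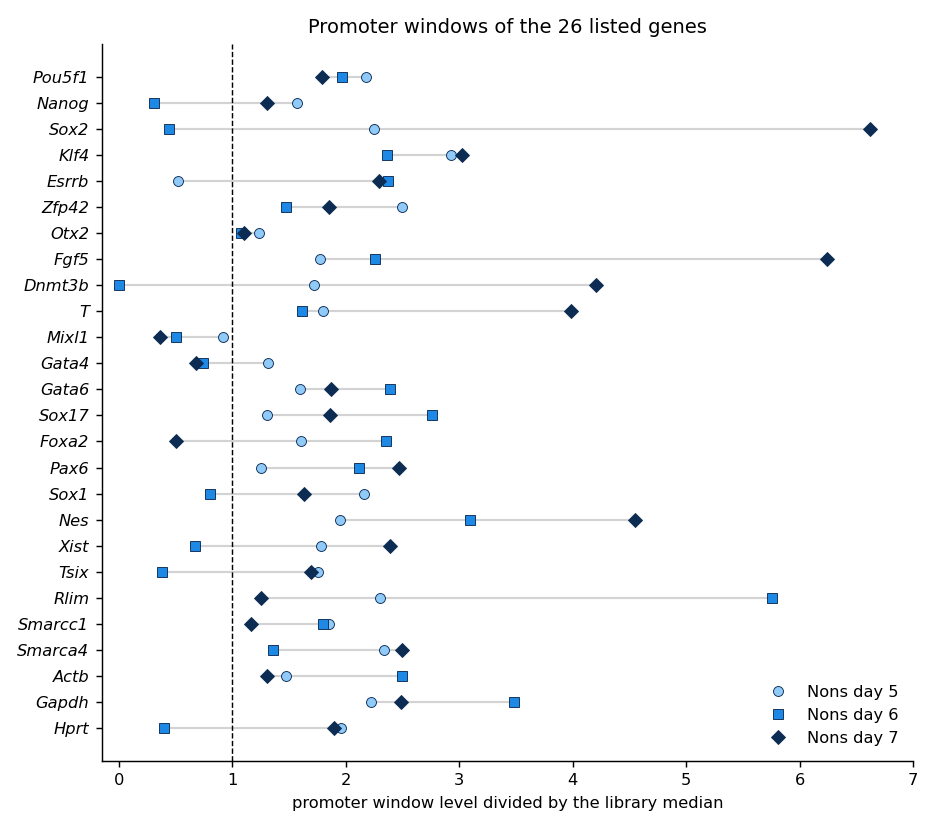
Level of the promoter window of each of the 26 listed genes in the Nons libraries at days 5, 6 and 7, divided by the autosomal median of the library (dashed line at 1); each point is 1 library. Sox2 and Fgf5 reach 6.62 and 6.24 at day 7, Rlim 5.75 at day 6, and most windows do not move in 1 direction over the 3 days.

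The windows with the largest changes on both days were mostly those with an extreme value in the day 5 library, which both changes share. Among 15631 promoter windows of protein-coding genes with a mean relative level of 1 or more and a length of 10 kb or less, the 8 highest had day 5 values of 0% to 15.3%. They belonged to Golt1a and Gm28040, which share a window, Gm8281, Rcor1, Npr2, Stox1, Gm10375, Olfr700 and Serpina6. Npr2, a natriuretic peptide receptor, measured 15.3%, 45.7% and 26%. Stox1 measured 2.08%, 24.5% and 7.69%, and Serpina6, a corticosteroid carrier of plasma, 5.45%, 17.7% and 11.4%. The 8 lowest had day 5 values of 47.0% to 69.2% and belonged to Gm32742, Ceacam19, Syt1, Map3k15, Fermt2, Zxdb, 9030624G23Rik and Gm19345. Fermt2, which encodes an integrin activator, measured 52.5%, 5.26% and 3.13%, and Map3k15, on the X, 48.3%, 4.65% and 2.50%. In the knockdown libraries 6 of the 8 highest windows were above 0 and 4 of the 8 lowest were below 0 at day 7. Over all 30725 promoter windows the median knockdown change was itself above 0, at 0.08, and the share above 0 was not counted. Since the rule ranked these windows by the changes themselves, the values are a description.

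Across 27 gene classes, housekeeping and developmental classes mostly lay above all promoters on the ratio scale. Several clustered, tissue-restricted families lay below. Of these, defensins at -0.36 and P450 genes at -0.19 kept that sign under the ratio and rank settings. Vomeronasal receptors at -0.07, keratins at -0.03 and olfactory receptors at -0.0055 did not. As differences in points 22 of the 27 classes turned sign. A class change is the log2 change of the class median divided by the median over all autosomal promoter windows. At day 7 against day 5, 19 classes were above 0 and 8 below, and by difference in points 7 were above and 20 below. At day 6 against day 5 16 were above and 11 below, by difference in points 10 and 17. The counts of raised and lost windows in a class are read against the 10.7% raised and 13.5% lost of all promoter windows at day 7. Of the 27, 13 were above 0 and 4 below in both arms, and the Spearman correlation between the arms was 0.11 over the classes, some of which share genes. Under the ratio and rank settings tried, 16 classes kept their sign, 12 of them up and 4 down.

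On the ratio scale, classes above 0 in both arms included replication-dependent histones, whose 50 windows had medians of 40.8%, 21.8% and 14.7% and changed by 0.29 in Nons and 0.32 in the knockdown. Hist3h2a was highest at 40.3%, 42.9% and 55.3%, and Hist1h2ak lowest at 37.7%, 10.5% and 1.59%. Of the histone windows, 8 were raised and 4 lost, where 10.7% and 13.5% of all promoter windows were. The 33 windows of tRNA synthetases, which charge tRNAs with amino acids, changed by 0.29 and 0.24, with 3 raised and 2 lost. The 83 windows of the nuclear-encoded respiratory chain changed by 0.24 and 0.46, with 10 raised and 7 lost. The 801 bidirectional promoters, where start sites of opposite genes lie within 1 kb, had medians of 37.8%, 18.6% and 12.7% and changed by 0.19 and 0.14, with 98 raised and 81 lost, which is near the 10.7% and 13.5% of all promoter windows. Most bidirectional windows (84.1%) are CpG-rich. The proteasome, which degrades tagged proteins, changed by 0.23 in Nons and -0.02 in the knockdown, with 8 of 39 windows raised and 0 lost. Cytosolic ribosomal proteins changed by 0.09 and 0.42. Mitochondrial ribosomal proteins changed by 0.13 and 0.11, and Polycomb and DNA methylation genes by 0.13 and 0.12, with Ezh2, the H3K27 methyltransferase, highest at 45.2%, 32.3% and 34.1%. From 66% (histones) to 86.6% (cytosolic ribosomal proteins) of the windows of these classes were CpG-rich, against 43.4% over all protein-coding genes. The 6296 matched CpG-rich windows changed by 0.18 in each arm relative to all promoters. Class changes near or below that size are therefore not particular to the class.

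Some developmental classes kept more in Nons on the ratio scale, but not alike in the knockdown. Neural and ectoderm factors changed by 0.46 in Nons, from medians of 34.5%, 21.2% and 13.9%, and by -0.10 in the knockdown. Six3, a forebrain factor, was highest at 40.6%, 31.2% and 48.0%, and Neurog1 lowest at 39.8%, 22.6% and 0%. Hox clusters, which pattern the body axis, had medians of 29.2%, 16.3% and 11.4% and changed by 0.40 and -0.07, with 5 of 36 windows raised and 2 lost. Genes of the primed epiblast changed by 0.42 and -0.16, and X inactivation regulators by 0.29 and -0.26, with Yy1, a factor that tethers Xist RNA, highest at 35.7%, 31.9% and 38.5%. Mesoderm and endoderm factors stayed near the promoters as a whole in Nons, at 0.05 and 0.07, and changed by 0.31 and 0.58 in the knockdown. The Wnt, Fgf, Bmp and Nodal ligands also stayed near them, at 0.0058 in Nons and 0.09 in the knockdown. Of the 58 ligand windows, 14 were raised and 11 lost in Nons, where 10.7% and 13.5% of all promoter windows were. Of markers of other cell types that a culture could hold, 14 trophoblast windows changed by -0.30 at day 6, the lowest of the 27 classes on that day, and by 0.02 at day 7, where the knockdown value was 0.49. The 20 fibroblast and matrix windows changed by -0.23 at day 6 and 0.16 at day 7, with 0.12 in the knockdown. The trophoblast medians were 29.3%, 11.3% and 8.71% and the fibroblast medians 29.3%, 11.8% and 9.63%, with 1 raised and 1 lost among the former and 2 raised and 1 lost among the latter at day 7. Their part in the other class changes was not tested.

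On the ratio scale, classes below 0 included cytochrome P450 genes, enzymes of drug and steroid oxidation, with medians of 24.2%, 9.79% and 6.26% over 98 windows and changes of -0.19 in Nons and -0.36 in the knockdown. Of these windows 8 were raised and 18 lost. Defensins, antimicrobial peptides, changed by -0.36 in Nons and -0.02 in the knockdown, with 2 of 62 windows raised and 11 lost. Vomeronasal receptors changed by -0.07 in Nons and -0.29 in the knockdown, with 41 of 316 raised and 43 lost. In Nons the vomeronasal class was 5.41 percentile points higher by rank and 4.72 points higher as a difference. Olfactory receptors fell with the promoters as a whole in Nons, at -0.0055, with 95 of 1077 raised and 151 lost, and changed by -0.21 in the knockdown. By rank and as a difference they were higher in Nons, by 7.43 percentile points and 4.58 points. The 377 windows of Zfp zinc-finger genes changed by -0.07 in Nons and 0.16 in the knockdown, with 32 raised and 51 lost. Keratins and associated proteins changed by -0.03 in Nons and 0.07 in the knockdown, with 10 of 109 windows raised and 17 lost. These counts are near the 10.7% and 13.5% of all promoter windows. By rank and as a difference keratins were higher in Nons, by 5.60 percentile points and 4.16 points. Clustered protocadherins, in contrast, lay above 0 in Nons, at 0.04, and changed by -0.32 in the knockdown. Imprinted genes had medians of 33.8%, 15.7% and 8.82%, a class change of -0.17 and 8 of 47 windows lost against 1 raised. Their median window change, however, was 0.10, and in the knockdown the class changed by 0.16. The BAF complex likewise changed by -0.09 in the class median and 0.11 in the median window change, with 2 of 28 windows raised and 0 lost.

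**Figure D4:**
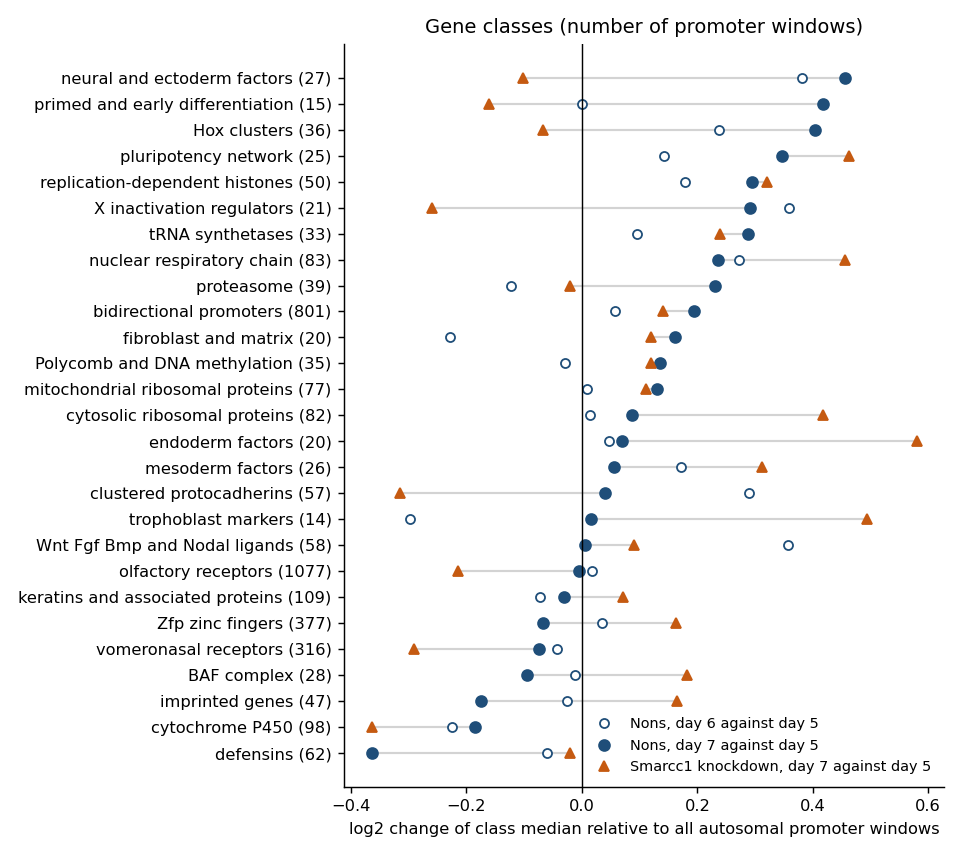
Log2 change of each gene class relative to all autosomal promoter windows, with the number of promoter windows in brackets, for Nons at day 6 (open circles) and day 7 (filled circles) against day 5 and for the Smarcc1 knockdown at day 7 against day 5 (triangles). In Nons the classes run from -0.36 for defensins to 0.46 for neural and ectoderm factors, and the arms lie close for histones and bidirectional promoters and far apart for X inactivation regulators.

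Averages over 1 Mb showed where relative accessibility was lost. Bins were called raised at 1.1 times or more and lost at the inverse or less, after division by the mean of autosomal windows. Of 2567 bins, 8.22% were lost and 1.52% raised at day 7 against day 5. At day 6 against day 5, 3.08% were lost and 0.857% raised, and at day 7 against day 6 5.69% and 1.52%. By difference of 1 point from the library mean, 282 were lost and 262 raised at day 7 against day 5, in place of 211 and 39. At day 6 against day 5 it was 235 lost and 216 raised, in place of 79 and 22, and at day 7 against day 6 63 and 37, in place of 146 and 39. Odd and even windows of the same bins gave changes that correlated at 0.31 on autosomes, and the error estimated from their difference was 0.059 (log2) against an SD over bins of 0.081, so much of the bin spread is sampling of windows.

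The 156 lost autosomal bins were gene-poor, AT-rich and covered by long windows. Their median GC content was 38.6% against 42.1% over all 2404 autosomal bins, they held a median of 5 start sites against 11, and their windows averaged 4072 bp against 3010 bp. Windows of 200 read positions grow long where few reads map. Divided at a mean window length of 3500 bp, a limit set after the values were seen, the longer bins were lost in 18.7% and the shorter in 1.52%. GC content and window length move with the loss, and their part in it was not tested. The loss recurred in the knockdown libraries, where 153 of the 156 bins had a negative change, against 53.0% of all autosomal bins, and 117 passed the same limit. The latter are 75% of the Nons bins and 25.5% of the 458 autosomal bins lost in the knockdown. Of all autosomal bins, 19.1% were lost and 7.74% raised in the knockdown, and of all 2567 bins, with the X, 21.3% and 7.28%. The Spearman correlation of the bin change between the arms was 0.48.

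**Figure D5:**
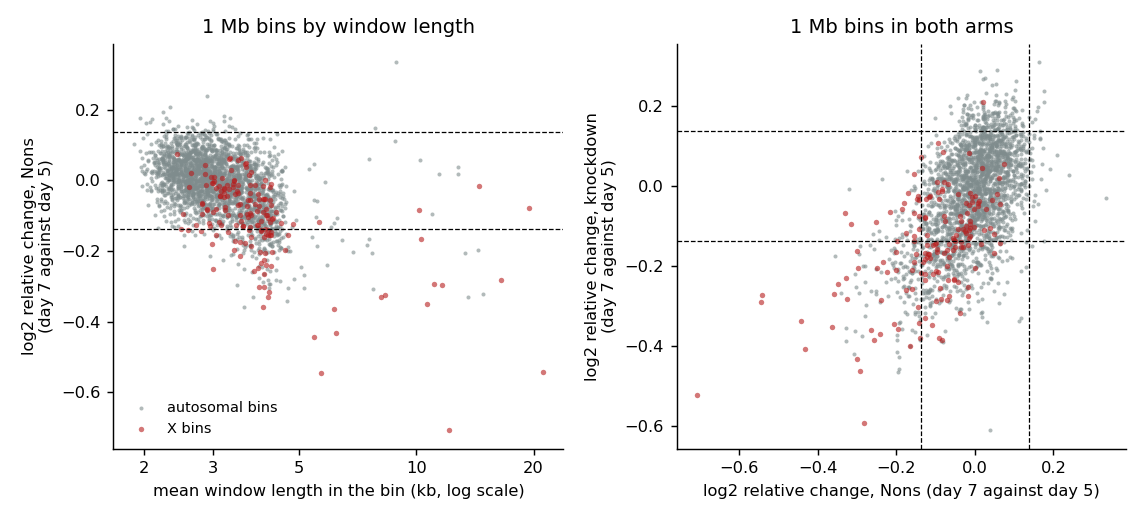
Left, log2 relative change of each 1 Mb bin in Nons from day 5 to day 7 against the mean window length in the bin (log axis); right, the same change in Nons against the Smarcc1 knockdown. Dashed lines mark ratios of 1.1 and its inverse, and X bins (red) lie below most autosomal bins (grey) in both arms, with long-window bins lowest.

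Several runs of lost bins held tandem gene families. On mm10, runs of 3 lost autosomal bins were chr17:18000000-20999999, which held 21 Vmn2r and 10 Vmn1r pheromone receptor genes and changed by -0.20 in Nons and -0.32 in the knockdown, and chr6:130000000-132999999, which held Klra receptors of natural killer cells and Tas2r bitter taste receptors and changed by -0.20 and -0.36. The others were chr7:31000000-33999999, which held Scgb genes for secretoglobins and changed by -0.18 and -0.28, and chr12:18000000-20999999, which held Asap2 and uncharacterised genes, fell from 19.7% to 8.36% and 5.09%, and changed by -0.31 and -0.27. No run of 3 raised bins was found. Of autosomal genes, 3.99% started in lost bins, and by family this was 41.2% of vomeronasal receptors, 25.5% of P450 genes, 14.7% of olfactory receptors and 8.63% of Zfp zinc-finger genes. The 46.2% of defensins and the 12.8% of keratin genes in lost bins each lay in 1 bin. Bidirectional promoters had 1.75% in lost bins. The 24 pluripotency, 28 BAF, 34 Polycomb, 38 Hox and 78 mitochondrial ribosomal genes had 0%, as did other classes such as mesoderm factors and protocadherins. At the 3.99% of all genes, sets this small would hold few genes in lost bins, and the Hox genes lie in 5 bins. Genes of a family share bins, so these shares rest on few places, such as 13 lost bins for vomeronasal and 10 for olfactory receptors. Besides the runs, chr4:112000000-112999999, with the Skint genes of epidermal T cell selection, fell from 22.9% to 9.53% and 5.81%, and chr7:10000000-10999999, with Vmn1r and Vmn2r genes, from 22.1% to 9.18% and 5.78%. The Skint bin held only 72 windows, at a mean length of 13611 bp, and the chr7 bin 220 windows at 4354 bp.

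Raised bins were fewer, and their changes were smaller. The 39 raised autosomal bins held a median of 15 start sites, against 11 over all autosomal bins, and each held at least 1. Ranked by the smaller of the day 6 and day 7 changes, whether called raised or not, chr10:9000000-9999999 was highest of all bins. This bin, with Samd5 and Stxbp5, a regulator of vesicle fusion, stood at 20.1%, 11.3% and 7.16%, a change of 0.16 at both days. Its change was -0.05 in the knockdown. Next came chr6:93000000-93999999, with 0 protein-coding start sites, chr12:50000000-50999999 with Prkd1, chr14:108000000-108999999 with Slitrk1 and chr3:148000000-148999999 with Adgrl2, a receptor of neuronal adhesion, at changes of 0.13 to 0.17 at day 7. Of the 39 raised autosomal bins 30 were above 0 in the knockdown, and their median GC content was 44.4%.

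The X chromosome lost more than any autosome at day 7. X windows held 21.3%, 10.3% and 6.00% at days 5, 6 and 7, so that 28.1% of the day 5 level was left at day 7, against 29.6% to 30.7% on the autosomes. Relative to the autosomes the X changed by -0.02 at day 6 and -0.10 at day 7, where single autosomes ranged from -0.03 to 0.02 at both days. At day 6 the whole X thus lay within the range of the autosomes, although 12.3% of X bins were lost against 2.45% of autosomal bins. On that day the X was lower in 10 of 10 deciles of GC content, by a median of -0.03. Within deciles of window length it was lower in 9 of 10, by a median of -0.01. In the knockdown libraries the X changed by -0.14 at day 7, against -0.03 to 0.05 on the autosomes. X bins are also AT-rich with long windows, so the day 7 comparison was repeated within deciles of GC content and of window length. At day 7 the X was lower in 10 of 10 deciles of GC content, by a median of -0.12, and in 10 of 10 deciles of window length, also by -0.12. Windows of 4 kb or less changed by -0.10 against autosomal windows of the same kind.

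On the X the loss was widespread and included promoters of every CpG class. Of 163 X bins 55 were lost (33.7%) and 0 raised, where 6.49% of autosomal bins were lost and 1.62% raised. In the knockdown 88 of the 163 X bins were lost, against 458 of the 2404 autosomal bins. Among the 63 X bins with a mean window length under 3500 bp 14.3% were lost in Nons, against 1.52% of such autosomal bins. CpG-rich X promoters had medians of 38.6%, 18.3% and 10.9% over 229 windows and changed by -0.09 at day 7, where autosomal ones changed by 0.10. CpG-poor X promoters changed by -0.15, against -0.01. In the knockdown the X CpG-rich promoters changed by 0.01, against 0.21 on autosomes. Ranked by the higher of the day 6 and day 7 changes, the deepest X bins were chrX:124000000-124999999, with Vmn2r121, at 20.9%, 7.66% and 4.57%, chrX:26000000-26999999, with Slx, a gene of postmeiotic spermatids, at 21.1%, 8.18% and 4.95%, and chrX:55000000-55999999, with Slxl1, at 20.8%, 8.45% and 4.55%. Runs of 4 lost bins also covered Btbd35f and Spin2 genes at chrX:31000000-34999999 and Tenm1 at chrX:43000000-46999999. The Btbd35f run had a mean window length of 11381 bp and the Tenm1 run of 4098 bp. Distance from Xist did not order the bins, with a Spearman correlation of -0.07 over 163 bins.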

How the data were processed

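NOMe-seq was performed on fixed mESCs. The study treated nuclei with a GpC methyltransferase, converted DNA with bisulfite, prepared Accel-NGS Methyl-Seq libraries and sequenced paired ends. Reads were trimmed with trim_galore and aligned with Bismark to mm10 with FVB and CAST variants masked, and coverage2cytosine, with its NOMe-seq option, kept the GpC positions of the extracted methylation. The submitters' processing notes name bcl2fastq, Bismark and mm10. Per window, the authors deposited the methylated percent of GpC calls, made in Seqmonk over windows of 200 read positions with both alleles merged. They carry no counts, so depth is unknown and no interval was computed. Library medians differ, and the values were treated as not normalised between libraries. Enzyme activity, fixation or conversion can each shift the level of a whole library.

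Here windows with a value in the 3 Nons libraries were used (1118 of 833044 nuclear windows were removed). All windows lay within GRCm38 chromosome lengths, and start sites of 21755 protein-coding and 12813 long non-coding RNA genes came from GENCODE M21. A promoter window was CpG-rich if a start site in it had a CpG observed to expected ratio of 0.6 or more and GC of 50% or more in the 1 kb around it, and CpG-poor if all were under 0.4. Bins needed 50 windows. Libraries were grouped by title, and no test was run. Group medians, the X change and bin means were tested on simulated data before use (Python 3.11.15, numpy 2.4.6, pandas 2.3.3). The call rule for single windows was not. Alternatives were means, other window sets, centring, ranks, another promoter definition, pseudocounts of 0.1 and 0.5, and other bin rules. The named genes were a fixed list of 26, the 8 highest and 8 lowest promoter windows, the extremes of each class and the extreme bins. The members, lists and rules were chosen with earlier results of these data known.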

Additional observations from a re-analysis of the deposited data

Results flagged for a closer look

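Several changes from day 5 had opposite signs in the Nons and the Smarcc1 knockdown libraries. With 1 library per arm and day, the differences were not tested. Promoter windows against other autosomal windows changed by -0.043 at day 6 and -0.039 at day 7 in Nons (log2), and by 0.039 and 0.051 in the knockdown. At day 7 the class of primed and early differentiation genes changed by 0.42 in Nons and -0.16 in the knockdown. Neural and ectoderm factors changed by 0.46 and -0.10, X inactivation regulators by 0.29 and -0.26, and imprinted genes by -0.17 and 0.16.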

How the results depend on the processing

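The fall itself kept its direction under every setting tried. By means in place of medians 50.4%, 31.8% and 63.1% of the level was kept (day 6 against 5, day 7 against 5, day 7 against 6), and without windows at 0% or 100% 30.7% and 62.6% in the comparisons of day 7. By means, promoters against other windows turned to 0.069 and 0.084 against day 5, CpG-rich promoters moved to 0.18 at day 7 and the X at day 7 against day 6 to -0.068. As differences in points (centring), CpG-rich promoters turned to -7.26 and -10.2 against day 5, and stood at -2.98 at day 7 against day 6, where promoters against other windows stood at -1.01. As rank percentiles CpG-rich promoters turned to -3.78 and -5.28, with -1.50 at day 7 against day 6, and promoters against other windows stood at -1.66 there. The relative width of the libraries grew over the same days, and the cause of these turns was not tested. Under centring 10 classes were above and 17 below all promoters at day 6, 7 and 20 at day 7, and 8 and 19 at day 7 against day 6. By rank 7 were below at day 6. At day 7 against day 5, 17 classes above 0 turned below it under centring, at -0.29 to -7.79 points, and 5 below 0 turned above it, at 1.40 to 4.72. Of these 22 classes, the 9 with a change of 0.2 or more were pluripotency at -2.85 points, primed and early differentiation at -2.72, neural at -1.22, X inactivation regulators at -3.91, respiratory chain at -2.98, proteasome at -1.52, tRNA synthetases at -4.81, histones at -6.74 and defensins at 1.94. The primed class also turned, to -0.0013, over windows with values in all 9 libraries. Promoter calls at day 6 were 1855 raised and 2227 lost with a pseudocount of 0.5, and 1909 lost among windows with a mean relative level of 1 or more, where 2213 were lost at day 7. By centring they were 4368 and 8007 at day 6, 8914 lost at day 7, and 2863 raised at day 7 against day 6. By rank they were 5834 and 8079, 5761 and 8589, and 7345 and 7933 in the 3 comparisons. Bins called from medians were 105 raised and 123 lost at day 6, 106 raised at day 7, and 119 and 225 at day 7 against day 6. A ratio limit of 5% called 296 and 364, 358 and 590, and 342 and 527 bins, and a ratio of 1.2 called 0 and 15, 1 and 38, and 2 and 6. Centring called 216 and 235 bins at day 6, 262 raised at day 7 and 63 lost at day 7 against day 6, and rank 88 and 76 raised at days 6 and 7. With windows of 4 kb or less, chosen after seeing the data, 53 bins were raised at day 6 and the X changed by -0.0067 there. No paired analysis was possible because each day is 1 library. Without counts per window, the part of depth in single windows could not be measured.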
